A study of Bos grunniens with 3 samples.

Results

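The upper-follicle-like KRT79 cells described here were 189 of the 38551 cells kept from 3 single-cell libraries of white yak hair follicles. A cell was a member when its transcriptome held KRT79 at 3 or more unique molecular identifiers (UMIs, each counting 1 captured transcript) and at 500 or more counts per 1000000 UMIs (CPM), while KRT1 and KRT10 together stayed under 0.5% of its UMIs, KRT75 under 2000 CPM and ELOVL3 under 5 UMIs. The members numbered 66 of 11987 cells in anagen, 52 of 12062 in catagen and 71 of 14502 in telogen. Their shares were 0.551% in anagen (exact 95% Clopper-Pearson interval 0.426 to 0.700), 0.431% in catagen (0.322 to 0.565) and 0.490% in telogen (0.383 to 0.617), and the intervals overlapped. Intervals throughout cover counting error only, because each stage was 1 library and had no replicate, so no difference between stages or between sets of cells carries a test.

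The libraries came from scapular skin of Tianzhu white yak (Bos grunniens) of about 2 years of age, with no treatment in any group. Follicles were loosened with dispase, pulled out singly, digested with trypsin and captured on the 10x Genomics Chromium system. The growing phase (anagen), the regressing phase (catagen) and the resting phase (telogen) of the hair cycle gave 1 library each. The stage of the catagen library rests on its title and stage label, since its protocol text names anagen, the number of animals behind each library was not given in the sources used here, and stage, library and version of the counting software change together and cannot be told apart.

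The upper follicle, comprising the infundibulum, the junctional zone and the duct of the sebaceous gland, joins the hair canal to the skin surface and forms a barrier there. KRT79 is a type II keratin known from the infundibulum and the sebaceous duct. KRT1 and KRT10 are the keratin pair of the suprabasal epidermis, KRT75 is a keratin of the companion layer, and ELOVL3 is a fatty acid elongase of sebocytes. The limits on these genes aim to leave out neighbouring lineages that can also hold KRT79.

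The members had a median of 6630 UMIs per cell in anagen, 4648 in catagen and 10395 in telogen, against 5247, 3344.5 and 5570 in the remaining cells. Summed over members, 504431, 307872 and 948123 UMIs were available in anagen, catagen and telogen. The members were thus deeper than the remaining cells in every library, and 5 of 66, 6 of 52 and 9 of 71 lay among the 5% of cells with the most UMIs. Doublets were left in, so what part they have in the members was not tested. Between libraries, 43 cell barcodes were shared by anagen and catagen, 40 by anagen and telogen and 49 by catagen and telogen, and 1 barcode of a member recurred, in anagen and catagen.

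A group of 7 anagen members stood apart when the members of that library were clustered alone, without the 5 genes of the selection. They had a median of 479 genes at a median of 4080 UMIs, where the other anagen sub-clusters of 49 and 10 cells had medians of 1598 and 1467.5 genes. KRT17 was 702 CPM (from UMIs summed over cells) in the 7 cells and 20650 in the sub-cluster of 49. CLDN4 was 251 CPM, SBSN 401 CPM and KRTDAP 226 CPM, and GSN rested on 1 UMI. These 7 cells therefore met the KRT79 rule with low levels of genes that most other anagen members held. Single members outside the group were low in these genes too, such as a catagen cell without a UMI of KRT17 or KRTDAP. In the 7 cells, the leading genes FABP7, DCN, CENPF, FSCN1 and KRT25 rested on a single cell for 97.4%, 71.4%, 88.0%, 100% and 55.6% of their UMIs. Keratins of the inner root sheath were higher in the 7 cells than in the other anagen members, with KRT25 at 451 against 34.4 CPM, KRT71 at 426 against 45.2 and KRT28 at 176 against 12.9, on 18, 17 and 7 UMIs. The remaining anagen cells held KRT25, KRT71 and KRT28 at 431, 637 and 143 CPM, so an excess over the library as a whole was not shown. The anagen results include these cells, and the marker ratios, the counts of genes, the coefficients across members and the values that moved by over 1.5 times are also given without them.

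The genes of the selection describe the members and support nothing further. KRT79 in single cells ran from 510 over a median of 952 to 3486 CPM in anagen members, from 503 over 1569 to 6554 in catagen and from 508 over 885 to 3538 in telogen. Outside the threshold, the highest cell with 3 or more KRT79 UMIs but too low a level had 486 CPM in anagen, 435 in catagen and 499.5 in telogen. Such cells numbered 40 in anagen, 5 in catagen and 83 in telogen, while 13, 7 and 8 members passed with exactly 3 UMIs. KRT1 and KRT10 together reached 0.498%, 0.487% and 0.491% of UMIs in the highest members of anagen, catagen and telogen, and the lowest KRT79-positive cells over the limit were at 0.502%, 0.508% and 0.501%. No gap separated members from non-members at either threshold.

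Cells that met both KRT79 criteria numbered 223 in anagen, 209 in catagen and 593 in telogen, and members were 29.6%, 24.9% and 12% of them. The limit on KRT1 and KRT10 removed most of the others, at 137 cells in anagen, 156 in catagen and 515 in telogen. The limit on ELOVL3 removed 24, 1 and 7 cells, that on KRT75 1, 0 and 2, and 5, 0 and 2 of these cells broke more than one limit. Among KRT79-positive cells within the other limits, the number between 0.25% and 0.5% of KRT1 plus KRT10 was 39 in anagen, 31 in catagen and 39 in telogen, and that between 0.5% and 1% was 62, 51 and 111. The numbers continued across the threshold in each library, and telogen had the longest upper range, with 87 cells above 4% against 6 in anagen and 9 in catagen.

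**Figure D1:**
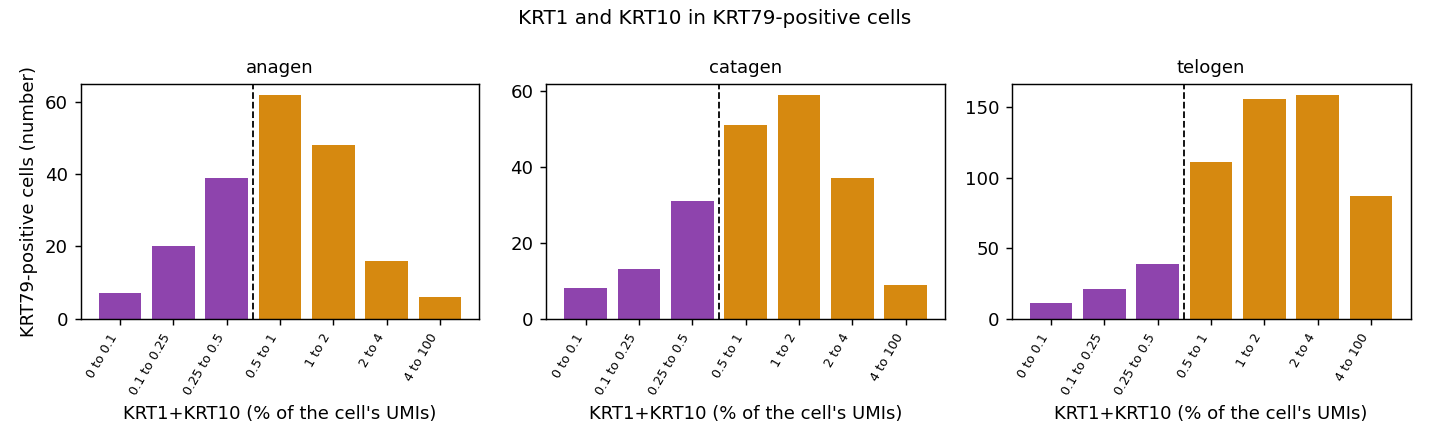
Number of KRT79-positive cells within the KRT75 and ELOVL3 limits (y axis, cells) in bins of the percentage of UMIs from KRT1 and KRT10 (x axis), 1 panel per library, with a dashed line at the 0.5% limit. Members lie left of the line, and the counts continue across it in all 3 libraries, reaching 159 cells in the 2 to 4% bin of telogen.

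Endothelial cells, which should lack KRT79, served as the measure of free RNA. At 3 or more KRT79 UMIs were 1 of 56 endothelial cells in anagen, 0 of 15 in catagen and 2 of 35 in telogen, and none was a member. Over all kept cells the shares at 3 or more UMIs were 2.19%, 1.77% and 4.66%, against 1.79%, 0% and 5.71% of endothelial cells, whose few cells give wide intervals. At this UMI count endothelial cells were therefore not shown to differ from the library as a whole. KRT1 and KRT10 together took 0.145%, 0.0331% and 0.403% of UMIs in endothelial cells, against 0.293%, 0.248% and 0.292% in the members. The members' KRT1 and KRT10 in telogen was thus below the level found in endothelial cells of that library, and in anagen and catagen above it. The rule limits both genes in members and not in endothelial cells, so this comparison was shaped by the selection. What part free RNA has in the members' KRT1 and KRT10 was not tested.

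The marker genes of the label that the rule did not use were KRT17, CLDN4, GSN and ACKR4. Members and lists were chosen with earlier results of these data known, so these genes describe the members and are no independent check. Nor are they particular to the members. As given below, GSN and ACKR4 were higher in KRT79-positive cells over only the KRT1 and KRT10 limit. Ratios are log2 of CPM in members over CPM in the remaining cells with 10 CPM added to both. KRT17, a keratin of the outer root sheath and the upper follicle, was 19378 CPM in anagen members, 17715 in catagen and 19977 in telogen, against 4902, 3570 and 6247 in the remaining cells. The log2 ratios were 1.98, 2.31 and 1.68, so the level in members was of similar size at each stage. Only 1 member in anagen and 1 in catagen had no KRT17 UMI, and none in telogen.

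CLDN4, a claudin of tight junctions, was 8150 CPM in anagen members, 2875 in catagen and 955 in telogen, with log2 ratios over the remaining cells of 2.31, 2.38 and 1.90. The stages therefore stood far apart in level while the excess over the remaining cells was alike, since the latter were at 1636, 542 and 248 CPM. The median member held CLDN4 at 4757, 2507 and 399 CPM, and 4, 6 and 17 members had no UMI of it.

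GSN, which encodes the actin-severing protein gelsolin, was 454 CPM in anagen members, 442 in catagen and 396 in telogen against 117, 189 and 246 in the remaining cells. The log2 ratios were 1.87, 1.19 and 0.67, so in telogen GSN was less than 2-fold higher, and over the settings tried the catagen ratio went down to 0.62 and the telogen ratio up to 1.22. The exact interval of the telogen ratio of summed counts, 0.54 to 0.84 on the log2 scale, lay below 1 as well. ACKR4, an atypical receptor that scavenges chemokines, was 29.7 CPM in anagen, 146 in catagen and 56.9 in telogen, with log2 ratios of 1.01, 1.83 and 1.15. The exact interval of its anagen ratio of summed counts was 0.77 to 2.34 on the log2 scale. With KRT1 plus KRT10 under 0.25% the ACKR4 ratio was 0.36 in anagen and 0.85 in catagen, and with KRT79 at 1000 CPM it was 0.62 in telogen, so its 2-fold difference depended on the thresholds. The gene rested on 15, 45 and 54 UMIs, and 55, 31 and 51 members had none. Without the 7 anagen cells the anagen ratios of KRT17, CLDN4, GSN and ACKR4 were 2.1, 2.42, 1.98 and 1.10.

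**Figure D2:**
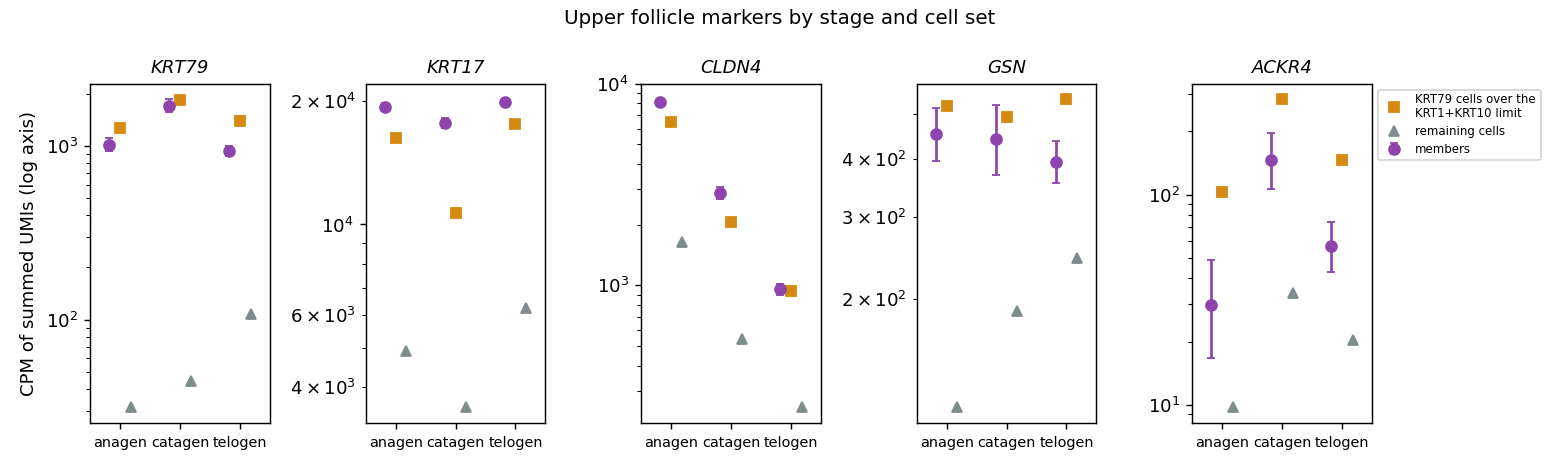
CPM on a log axis of KRT79, KRT17, GSN, CLDN4 and ACKR4 in the members, in KRT79-positive cells over only the KRT1 and KRT10 limit, and in the remaining cells, by stage, with exact Poisson intervals of the summed counts on the members. KRT17 and CLDN4 lie over 2-fold above the remaining cells at each stage, ACKR4 does so by little in anagen (log2 ratio 1.01) and telogen (1.15), GSN does so in anagen and catagen, and CLDN4 in members is 8150 CPM in anagen and 955 in telogen.

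After each cell was thinned to 1500 UMIs, 93.9% of anagen members, 98.0% of catagen and 97.1% of telogen members held a KRT17 UMI, against 46.4%, 21.4% and 48.5% of endothelial cells. CLDN4 was found in 78.8%, 75.5% and 50% of members and in 28.6%, 7.14% and 3.03% of endothelial cells. GSN was found in 39.4%, 46.9% and 50% of members and in 7.14%, 0% and 9.09% of endothelial cells. All of these shares were higher in members, and intervals did not overlap. ACKR4 was found in 7.58%, 20.4% and 11.4% of members and in none of 56, 14 and 33 endothelial cells, which allows shares of up to 5.36%, 21.4% and 9.09%. The median depths before thinning were 6630, 4648 and 10395 UMIs in members and 4039.5, 2503 and 4484 in endothelial cells, and thinning left out 0, 3 and 1 members. KRT17, CLDN4 and GSN in members were thus above the free RNA background of each library. The intervals of the ACKR4 shares in members began at 2.51%, 10.2% and 5.07%, below those limits, so ACKR4 was not shown to exceed the background at any stage.

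Over all genes with 10 CPM or more in a library, 79 of 5496 were at least 2-fold higher in members than in the remaining cells of anagen (1.44%), 148 of 5753 in catagen (2.57%) and 92 of 5156 in telogen (1.78%). At least 2-fold lower were 281 (5.11%), 444 (7.72%) and 168 (3.26%), and the median log2 ratio of all genes was -0.16, -0.08 and -0.04. With median-of-ratios scaling the higher and lower genes numbered 119 and 178 in anagen, 193 and 357 in catagen and 99 and 149 in telogen. Of the 4805 genes measured in all libraries, 30 (0.624%) were higher in every stage and 80 (1.66%) lower in every stage. Without the 7 anagen cells these were 33 and 84, and the anagen counts were 105 and 315. These genes are described below by group, and all of them come from the cells that the rule selected.

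Kallikreins and their inhibitors were prominent among the genes higher in members at each stage. KLK7, a protease that cleaves the desmosomes of shedding corneocytes, was 1812 CPM in anagen members, 991 in catagen and 4412 in telogen, with log2 ratios of 2.22, 2.31 and 2.44. In catagen 43.3% of these UMIs came from 1 cell. KLK10 was 765, 422 and 441 CPM (2.43, 1.65 and 1.30) and KLK11 was 165, 104 and 238 CPM (1.54, 1.77 and 1.93), again with one catagen cell giving 43.1% and 53.1% of the UMIs. SPINK5, the inhibitor of epidermal kallikreins, was 2553, 4008 and 4140 CPM against 758, 1578 and 913, with log2 ratios of 1.74, 1.34 and 2.17. Protease and inhibitor were therefore both higher in members than in the remaining cells at each stage. Thinned to 1500 UMIs, KLK7 was found in 62.1%, 26.5% and 70.0% of members and SPINK5 in 77.3%, 87.8% and 81.4%, against 10.7%, 7.14% and 9.09% and 16.1%, 7.14% and 18.2% of endothelial cells. The thinned KLK7 share in catagen was the lowest of the stages, as was its CPM, and its interval overlapped that of the endothelial cells.

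Of all kallikrein and SPINK genes, a list drawn up after values were seen, 5 of 10 measured were at least 2-fold higher and 2 lower in anagen, 4 and 1 of 6 in catagen and 6 and 1 of 10 in telogen. The medians were 0.72, 1.49 and 1.53, beside -0.16, -0.08 and -0.04 over all genes. The catagen median turned to -1.20 when members were held under 0.25% of KRT1 plus KRT10. Over all genes 1.44%, 2.57% and 1.78% were higher and 5.11%, 7.72% and 3.26% lower. Against KRT79-positive cells over only the KRT1 and KRT10 limit, described below, the medians of this list were -0.29, 0.11 and 0.02. KLK5, which activates KLK7, was 195 CPM in telogen members against 50.7 in the remaining cells, and only 59.5 against 45.3 in anagen. KLK6 was 39.6 CPM in anagen members and 182 in telogen against 13.0 and 22.6, and its catagen UMIs came from 1 cell.

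Genes of the suprabasal layers and of cornification were the other large group. SBSN (suprabasin), a secreted protein of differentiating keratinocytes, was 8300 CPM in anagen members, 10037 in catagen and 5667 in telogen, with log2 ratios of 1.64, 2.01 and 1.63. KRTDAP, another secreted differentiation product, was 8328, 6028 and 8440 CPM with ratios of 1.27, 1.59 and 0.97. KRT80, an epithelial keratin, was 117, 250 and 103 CPM (1.93, 1.68 and 1.39), and ABCA12, the lipid transporter of lamellar granules, had ratios of 1.08, 1.77 and 1.36. SBSN was found after thinning in 90.9%, 98.0% and 98.6% of members and in 42.9%, 7.14% and 24.2% of endothelial cells. Of the listed suprabasal genes, 7 of 15 measured were at least 2-fold higher and 2 lower in anagen, 8 and 2 of 14 in catagen and 6 and 1 of 14 in telogen, with medians of 0.99, 1.13 and 0.89. Over all genes 1.44%, 2.57% and 1.78% were higher and 5.11%, 7.72% and 3.26% lower. The members thus carried suprabasal genes at levels above the average follicle cell although KRT1 and KRT10 were held low by the rule. This was not particular to the members. Against KRT79-positive cells over only the KRT1 and KRT10 limit, described below, the medians of this list were -0.35, -0.20 and -0.31.

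KRT1 itself was 882, 510 and 577 CPM in members against 4617, 4440 and 6237 in the remaining cells, and KRT10 was 2050, 1975 and 2346 against 3736, 4935 and 4806. Both are limited by the selection. After thinning, KRT1 was found in 51.5%, 34.7% and 50% of members and in 39.3%, 14.3% and 48.5% of endothelial cells, with overlapping intervals at each stage. KRT10 was found in 81.8%, 81.6% and 81.4% of members and in 37.5%, 35.7% and 36.4% of endothelial cells, with intervals that did not overlap.

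Among other genes that led the members, KRT23, an epithelial type I keratin, was 147, 322 and 281 CPM in anagen, catagen and telogen against 24.5, 59.5 and 46.6 in the remaining cells. Its log2 ratios were 2.18, 2.25 and 2.36, and no single cell gave more than 16.2% of its UMIs. However, 54 of 66, 25 of 52 and 38 of 71 members had no KRT23 UMI. After thinning, 10.6% of anagen members and 1.79% of anagen endothelial cells held KRT23, with overlapping intervals. LY6G6C, a surface protein of the LY6 family, was 527, 770 and 785 CPM with ratios of 1.89, 2.01 and 1.76. KRT79-positive cells over only the KRT1 and KRT10 limit held KRT23 at 142, 234 and 187 CPM. Their median cell held LY6G6C at 512, 845 and 555 CPM, against 310, 518 and 478 in the median member. KRT23 and LY6G6C were thus not particular to the members. CCL20, the chemokine that attracts CCR6-bearing lymphocytes and dendritic cells, was 1471, 598 and 359 CPM (1.74, 1.43 and 1.51), and 1 cell gave 40.8%, 40.8% and 50% of its UMIs in anagen, catagen and telogen. CCL20 was found after thinning in 30.3%, 14.3% and 12.9% of members and in 16.1%, 0% and 3.03% of endothelial cells, with overlapping intervals. In the list of chemokines and scavenger receptors 1, 2 and 2 of 4 measured genes were higher and 2 of 4 were lower at every stage, with medians of -0.73, 0.09 and -0.21, and ACKR4 was under the 10 CPM filter in anagen. Over all genes 1.44%, 2.57% and 1.78% were higher and 5.11%, 7.72% and 3.26% lower. CXCL14, a chemokine of epithelia, was lower, with ratios of -2.06, -1.77 and -2.37. SHF, an adaptor protein, QPCT, which forms pyroglutamate at protein ends, and ACAP1, a regulator of endosomal traffic, completed the leading genes, with smallest ratios over the stages of 1.33, 1.18 and 1.14. A gene without a symbol, ENSBGRG00000018549, was also higher in members, at 25355, 15640 and 37627 CPM and ratios of 2.36, 2.67 and 2.19, and was named after its values were seen.

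**Figure D3:**
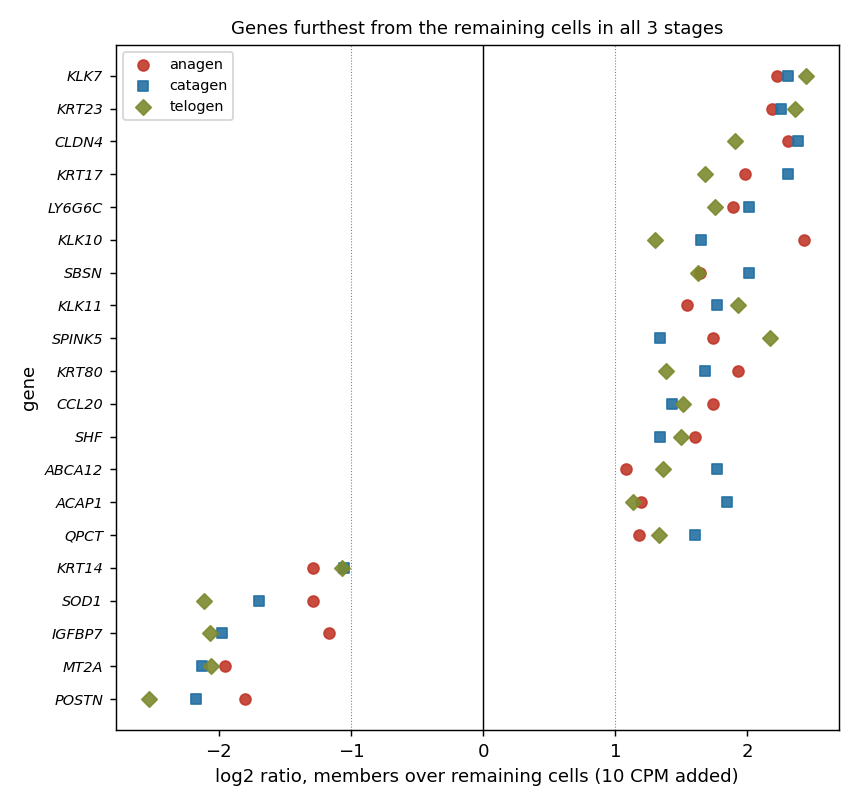
Log2 ratio of CPM in members over remaining cells (x axis, 10 CPM added to both) for the 15 genes highest and the 5 lowest at all stages by the fixed rule, which takes genes with a symbol, 1 point per stage. All 15 lie above 1 at each stage, from 1.08 for ABCA12 in anagen upward, and all 5 lie below -1, down to -2.53 for POSTN in telogen.

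At the other end, MT2A, a metallothionein, was 198 CPM in anagen members, 77.9 in catagen and 501 in telogen against 795, 374 and 2121 in the remaining cells, with log2 ratios of -1.95, -2.13 and -2.06. POSTN (periostin), an extracellular matrix protein used as a bulge and germ marker, was 216, 175 and 154 CPM against 779, 826 and 937. SOD1, the cytosolic superoxide dismutase, and IGFBP7, a binding protein of insulin-like growth factors, had ratios of -1.29, -1.70 and -2.11 and of -1.17, -1.97 and -2.07. KRT14, the type I keratin of basal keratinocytes, was 4347, 5661 and 9740 CPM against 10640, 11781 and 20383 and was lower by 1.29, 1.06 and 1.06 on the log2 scale. The gene ENSBGRG00000003029, named after its values were seen, was lower still, at 206, 97.4 and 11.6 CPM against 2012, 2836 and 525.

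Several lists of neighbouring lineages were lower in members, whereas outer root sheath and companion layer genes had medians of -0.13, -0.59 and 0.44, with 1 of 6, 0 of 7 and 0 of 5 higher and 1, 3 and 0 lower. Of listed inner root sheath genes, 5 of 7 measured were at least 2-fold lower in anagen, 6 of 8 in catagen and 4 of 6 in telogen, with medians of -2.10, -2.52 and -2.84. Hair cortex and cuticle genes were lower in 5 of 6, 5 of 5 and 3 of 3. Bulge and hair germ genes were lower in 5 of 8, 10 of 13 and 4 of 7, with medians of -1.19, -1.47 and -1.32. None of these lists held a gene at least 2-fold higher. Over all genes 5.11%, 7.72% and 3.26% were lower and only 1.44%, 2.57% and 1.78% higher, so the lack of higher genes is near that share. Mitotic genes were lower in 7 of 12, 9 of 10 and 5 of 11, DNA replication genes in 4 of 12, 2 of 10 and 0 of 12, and basal and hemidesmosome genes in 4, 4 and 6 of 12 with medians of -0.72, -0.78 and -0.99. Keratin genes as a family had 3 members higher at each stage and 7 of 15, 12 of 16 and 9 of 14 lower. The members were therefore low in most measured genes of the inner root sheath and hair cortex lists, while DNA replication genes in telogen were all within 2-fold. Without the 7 anagen cells the inner root sheath median in anagen was -2.74.

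Of 21 other upper follicle and duct genes listed, 9 were on the gene list and 6 reached 10 CPM over all kept cells. A gene held mainly by so few cells can fall under that filter, so this list cannot decide whether such genes mark the members. Of the 6 measured, 1 was at least 2-fold higher in anagen and 1 lower in catagen, and the medians were -0.02, 0.33 and 0.04. Over all genes 1.44%, 2.57% and 1.78% were higher and 5.11%, 7.72% and 3.26% lower. LRIG1, the receptor inhibitor that marks junctional zone stem cells, was 39.6, 45.5 and 34.8 CPM in members and 38.0, 40.0 and 30.9 in the remaining cells, a difference within the counting intervals. LIPK, an epidermal lipase, was the gene higher in anagen, at 51.5 against 15.1 CPM. GATA6, a transcription factor of the sebaceous duct that was named after its values were seen, lay under the 10 CPM filter, but was 21.8, 19.5 and 19.0 CPM in members against 4.20, 4.94 and 3.84. It rested on 11, 6 and 18 UMIs, and after thinning was found in 6.06%, 6.12% and 5.71% of members and 0.638%, 0.708% and 0.565% of remaining cells. It was found in none of 56 endothelial cells of anagen and 14 of catagen and in 3.03% of those of telogen. The members' intervals began at 1.68%, 1.28% and 1.58%, below the limits that these cells allow, so an excess over the background was not shown.

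Tight junction genes had medians of 0.94, 0.60 and 0.39 over 4 measured genes at each stage. CLDN1, a claudin of the epidermal barrier, was 1312 against 581 CPM in anagen, with a log2 ratio of 1.16, and had ratios of 0.81 and 0.49 in catagen and telogen. Together with CLDN4 it made 2 of 4 measured tight junction genes in anagen, and CLDN4 alone was at least 2-fold higher in catagen and telogen. CXADR, an adhesion molecule of the junction, had ratios of 0.71, 0.39 and -0.44. None of 13 desmosome and adherens junction genes was higher at any stage, 0, 2 and 1 were lower, and the medians were 0.07, -0.05 and 0.13. Over all genes 1.44%, 2.57% and 1.78% were higher and 5.11%, 7.72% and 3.26% lower. Counts this small in 13 genes are near those shares and are not read as a result. Of 13 actin regulators, 1 was higher in anagen and in catagen, which was GSN, and none in telogen. TPM1, a tropomyosin, was the 1 gene of this list that was at least 2-fold lower, in catagen.

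Regulators and signalling genes differed from list to list. The shares over all genes were 1.44%, 2.57% and 1.78% higher and 5.11%, 7.72% and 3.26% lower. Single genes called in a list, or none, are not read as a result beside those shares. Of Notch pathway genes none was higher and 3 of 8, 4 of 8 and 3 of 6 were lower, and of WNT, BMP and hedgehog genes none was higher and 5 of 13, 8 of 14 and 2 of 10 were lower. SOX9, the transcription factor of the outer root sheath, was 1683, 945 and 635 CPM in members against 612, 526 and 388, with log2 ratios of 1.44, 0.83 and 0.70. BTC (betacellulin), a ligand of the epidermal growth factor receptor, had ratios of 0.85, 1.68 and 1.76. EHF, an epithelial ETS factor, had ratios of 0.34, 1.84 and 1.30, and EPCAM, an epithelial adhesion molecule, 0.80, 1.16 and 0.92. Of epithelial transcription factors, 2 of 20, 2 of 19 and 1 of 19 were higher and 2, 1 and 0 lower. Sebocyte and lipid synthesis genes were higher in 0 of 10, 6 of 11 and 1 of 8 and lower in 1, 0 and 0, so catagen was the stage with most of these genes above the remaining cells. ERBB ligands and receptors were higher in 1 of 8, 3 of 8 and 1 of 6 and lower in 0, 1 and 0. Gland genes were higher in 1 of 6, 3 of 5 and 1 of 6 and lower in 1, 2 and 0, and their catagen median of 1.16 turned to -0.41 when genes down to 1 CPM were included. In the early response and stress list, 1 of 20, 1 of 20 and 0 of 19 were higher and 0, 1 and 0 lower, with medians of 0.36, -0.13 and -0.13.

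Markers of cell types outside the epithelium were low in the members. PECAM1, CDH5, VWF, EMCN, PTPRC, VIM and COL3A1 were at 0 UMIs in members of every stage. The endothelial list summed to 9.91, 6.5 and 6.33 CPM in members against 18.4, 8.65 and 10.3 in the remaining cells, so it was low in both, with 9, 9 and 8 of 10 genes at 0, and the immune list to 23.8, 61.7 and 9.49 CPM against 57.8, 162 and 93.3, with 8, 7 and 8 of 9 genes at 0. The melanocyte list summed to 9.91, 19.5 and 4.22 CPM against 9.32, 36.9 and 8.77. The mesenchymal and pericyte list summed to 89.2, 198 and 44.3 CPM in members against 318, 454 and 304 in the remaining cells, with 8, 11 and 9 of 13 genes at 0. Most of the catagen sum was TAGLN from 1 cell, and 1 gene of this list, MGP, a matrix protein, was at least 2-fold higher, in anagen (39.6 against 13.6 CPM).

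The closest comparison was with KRT79-positive cells that exceeded only the limit on KRT1 and KRT10, 132 cells in anagen, 156 in catagen and 513 in telogen. Against them 46 genes (0.837%), 85 (1.48%) and 32 (0.621%) were at least 2-fold higher in members and 101 (1.84%), 149 (2.59%) and 45 (0.873%) lower. No gene was higher at every stage (0%), and 3 (0.0624%) were lower at every stage. These shares were below those found against the remaining cells. KRT17 was 16265, 10687 and 17563 CPM in the KRT1 and KRT10 cells, CLDN4 6484, 2061 and 935, and KLK7 3329, 943 and 4442. ACKR4 was higher in those cells than in members, at 103, 284 and 146 CPM, and GSN was at 520, 494 and 540.

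Some basal genes were among those that lay higher in members than in these cells. S100A2, a calcium-binding protein of basal keratinocytes, was 3388 CPM in anagen members against 1886, 2836 against 1062 in catagen and 10379.5 against 2525 in telogen, with log2 ratios of 0.84, 1.41 and 2.04, although 1 cell gave 45.8% of the catagen UMIs. SPARC, a matrix protein of bulge cells, had ratios of 1.08, 0.76 and 1.37, PDLIM1, a cytoskeletal adaptor, 1.16, 1.78 and 0.80, and KRT14 0.95, 0.95 and 0.60. Of the 12 measured genes of the basal list, 2, 5 and 0 were at least 2-fold higher than in the KRT1 and KRT10 cells and none lower, with medians of 0.12, 0.71 and 0.54. Of 15, 14 and 14 measured suprabasal genes, 0, 1 and 0 were at least 2-fold higher than in those cells and 4, 1 and 3 lower. The medians of the suprabasal list were -0.35, -0.20 and -0.31. Over all genes in this comparison 0.837%, 1.48% and 0.621% were higher and 1.84%, 2.59% and 0.873% lower. Lower in members were KRT77, a keratin related to KRT1, at -1.19, -3.05 and -1.75, PDZK1IP1, a small membrane protein, at -1.0, -1.16 and -1.60, and ID2, an inhibitor of differentiation factors, at -0.98, -1.17 and -2.15. Thus KRT14 was lower in members than in the average cell, yet higher than in KRT79-positive cells with more KRT1 and KRT10, and the limit on these keratins is part of the rule.

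The 24 anagen cells that the ELOVL3 limit removed were compared with the members in marker genes and in genes that the rule named. The rule named the highest and lowest genes of this comparison, so large differences in them follow from that choice. CCL20 was 1471 CPM in members and 13.5 in those cells, KLK7 1812 and 20.2, KRT17 19378 and 1855, and CLDN4 8150 and 603. In turn ELOVL1, an elongase of very long chain fatty acids, was 85.2 CPM in members and 11905 in those cells, and MBOAT2, an acyltransferase, was 1.98 and 2935. PNPLA3, a lipase, was at 0 in members and 1023 CPM in those cells. The other libraries held 1 and 7 such cells, which were too few for a like account.

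Within the members, KRT14 and the secreted differentiation genes KRTDAP and SBSN varied in opposite directions. Across cells, KRT14 and KRTDAP had a Spearman coefficient of -0.46 over 66 anagen members, -0.48 over 52 catagen members and -0.60 over 71 telogen members. Against SBSN, KRT14 had coefficients of -0.44, -0.58 and -0.62, and against CLDN4 -0.44, -0.45 and -0.57. With KRT5, its basal partner keratin, the coefficients were 0.56, 0.50 and 0.60, and with SPARC 0.48, 0.45 and 0.57. KRTDAP and SBSN went together at 0.77, 0.74 and 0.75. These are descriptions over cells that share a library and differ in depth. KRT14 in single members spanned 122 to 16377 CPM in anagen, 0 to 23834 in catagen and 0 to 31724 in telogen, with medians of 1707, 483 and 3511. Without the 7 anagen cells, over 59 cells, the anagen coefficients of KRT14 were -0.54 with KRTDAP, -0.5 with SBSN, -0.48 with CLDN4, 0.6 with KRT5, 0.49 with SPARC and -0.35 with KRT17, and that of KRTDAP with SBSN was 0.7. KRT17 had weaker coefficients of mixed sign with KRT14, at -0.31, -0.28 and 0.28. After thinning, KRT14 was found in 81.8%, 59.2% and 88.6% of members and in 71.4%, 57.1% and 75.8% of endothelial cells, and KRT5 in 47.0%, 28.6% and 40% and in 26.8%, 21.4% and 27.3%. The intervals overlapped for both genes, so these shares did not show an excess over the free RNA background, and the part of free RNA in the range of KRT14 and KRT5 was not tested.

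**Figure D4:**
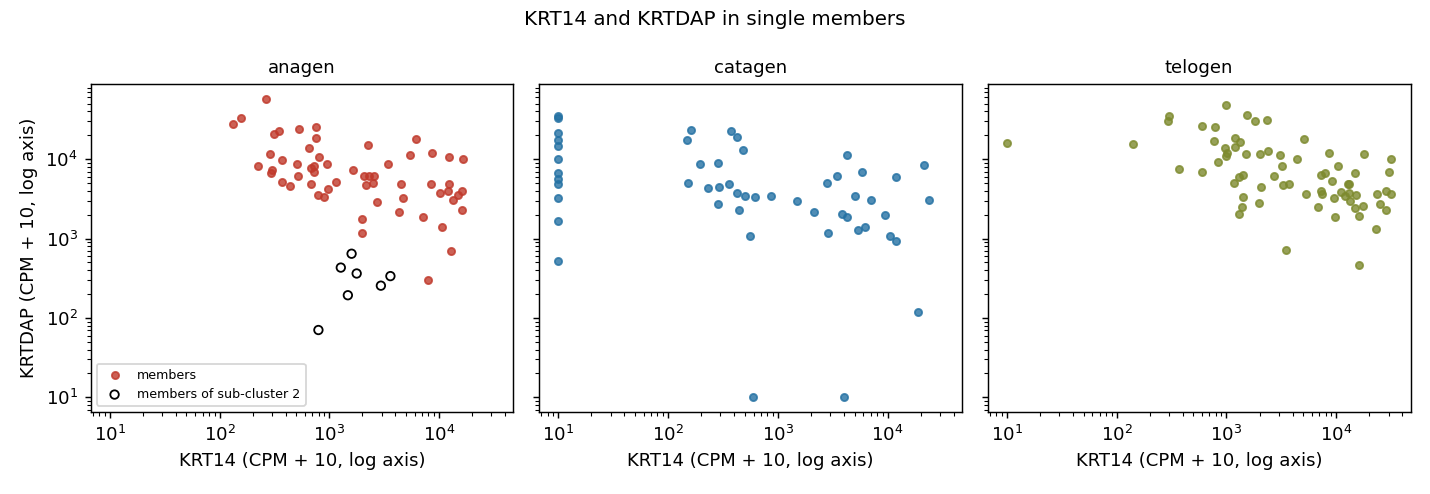
KRTDAP against KRT14 CPM of each member (both axes log, 1 point per cell, 1 panel per library), with the 7 anagen cells of the low-complexity sub-cluster as open circles. Cells with high KRT14 tend to lie low in KRTDAP, with Spearman coefficients of -0.46, -0.48 and -0.60.

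Clustered alone, the telogen members divided along this axis into 40 and 31 cells. The 40 cells led with SPARC (885 against 71.3 CPM in the 31), DST, a hemidesmosomal plakin (263 against 26.4), KRT5 (1309 against 174), ITGA6, an integrin of basal cells (148 against 13.2), and PLEC. KRT14 was 13235 CPM in the 40 cells and 4488 in the 31. The 31 cells led with CCHCR1, a coiled-coil protein (1243 against 10.5), KLK5 (462 against 17.6), CCL20 and the LY6 family gene LYPD5, and held SBSN at 9385, KRTDAP at 14301 and CLDN4 at 2035 CPM, the last against 235. Another leading gene of the 31, S100A7, came from 1 cell for 98.1% of its UMIs. In anagen, the sub-cluster of 10 cells led with SPINK7, nearly all from 1 cell, and with CCHCR1 (1637 against 74.0 CPM, 50% from 1 cell), LIPK, HSPB8 and KRT23 (749 against 46.3), with KRTDAP at 24450, SBSN at 25698, CLDN4 at 17054 and KRT14 at 583 CPM, while the 49 cells led with THEM5, CCL27, NME2, HSPH1 and TIMP1, of which 1 cell gave 58.3% of CCL27, 61.6% of HSPH1 and 54.0% of TIMP1, and held KRT14 at 5327 and SBSN at 5908 CPM. The catagen members formed 1 cluster of 52 cells at this resolution. At a finer resolution the catagen groups of 18, 12, 11 and 11 cells led with POSTN, STK17A, CNFN and TAGLN, of which POSTN came to 50.9%, CNFN to 95.2% and TAGLN to 100% from 1 cell. The upper end of KRT1 and KRT10 is limited by the rule, so no pattern is read from them. They were 725 and 2766 CPM in the 40 telogen cells against 354 and 1713 in the 31, and 111 and 833 CPM in the 10 anagen cells against 1011 and 2253 in the other anagen members. In the catagen group of 11 cells with KRTDAP at 16955 CPM they were 374 and 2486 against 539 and 1867. No sub-cluster was given a cell type name.

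Between stages, differences in members are given beside the same difference in the remaining cells of the same libraries. CCN2, a matricellular target gene of YAP, was 605 CPM in anagen members, 1393 in catagen and 21.1 in telogen, against 230, 360 and 91.0 in the remaining cells. The log2 ratio of telogen to anagen was -4.31 in members and -1.25 in the remaining cells, and that of telogen to catagen -5.50 and -1.87. Summed over cells, members were above the remaining cells in anagen and catagen and below them in telogen. In catagen this rested largely on a group of 12 members found by finer clustering, at 4728 CPM. The other catagen members were at 416 CPM, and the remaining cells at 360 CPM. The group was found from the same values, and no such cells were left out of the remaining cells, so these levels are not a like comparison. ATF3, a stress-induced transcription factor, was 1213, 715 and 123 CPM in members against 584, 744 and 211, and AREG (amphiregulin), an epidermal growth factor receptor ligand, was 1352, 942 and 182 against 646, 303 and 163. CLDN4 differed in like measure in both sets, with a telogen to anagen ratio of -3.08 in members and -2.67 in the remaining cells.

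Anagen members were the highest of the stages in PDK4, a kinase that restrains pyruvate oxidation, at 236 CPM against 13.0 in catagen and 24.3 in telogen, and in ITPKC, an inositol trisphosphate kinase, at 1275 against 309 and 65.4. The remaining cells had PDK4 at 53.9, 12.9 and 24.2 CPM and ITPKC at 545, 112 and 52.2, with the stages in the same order as in members for both genes. BHLHE40, a circadian repressor, was 301, 71.5 and 36.9 CPM in members and 271, 108 and 61.5 in the remaining cells. Over the settings tried, the log2 ratio of anagen to the nearer stage in members went down to 0.99 for BHLHE40 and 1.03 for ITPKC. FABP7 was 91.2 CPM in anagen members and at 0 in the others, and 1 cell of the group of 7 gave 80.4% of it, while the remaining cells had 117, 23.7 and 21.4 CPM. Without those 7 cells FABP7 was 17.2 CPM in anagen members.

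C15orf48, which encodes a protein of the mitochondria, was lowest in anagen members, at 0 UMIs, which allows up to 5.95 CPM, against 52.0 CPM in catagen and 59.1 in telogen, and the remaining cells had 0.911, 1.89 and 6.61. ELOVL4, an elongase for barrier ceramides, was 57.5 CPM in anagen members, 227 in catagen and 192 in telogen, while the remaining cells varied little, at 66.3, 72.4 and 64.0. Its log2 ratio of anagen to the nearer stage was -1.58, but -0.83 after thinning and -0.20 with KRT1 plus KRT10 under 0.25%. CNFN (cornifelin) was 9.91, 68.2 and 62.2 CPM, and 1 cell gave 95.2% and 52.5% of its catagen and telogen UMIs. The remaining cells had CNFN at 10.9, 26.3 and 36.9 CPM, and the direction turned with KRT1 plus KRT10 under 0.25%.

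Catagen members were the lowest in IRX3, a homeobox gene, at 9.74 CPM against 95.2 in anagen and 111 in telogen, in LY6E, a surface protein, at 9.74 against 123 and 70.7, and in PYCARD, the inflammasome adaptor, at 9.74 against 61.5 and 79.1. Each of these rested on 3 UMIs in catagen. The remaining cells were also lowest in catagen, with IRX3 at 69.8, 25 and 80.0 CPM in anagen, catagen and telogen, LY6E at 42.2, 12.9 and 38.2 and PYCARD at 56.5, 25.9 and 53.0. PCF11, which acts at transcript ends, was highest in catagen at 195 CPM against 45.6 and 51.7, as it was in the remaining cells at 150 against 73.3 and 58.3. Over the settings tried, the log2 ratio of catagen to the nearer stage in members ranged from 0.75 to 2.41 for PCF11. That of PYCARD ranged from -2.63 to -0.90. TAGLN and HSD17B2 were also highest in catagen, at 182 and 68.2 CPM, but 1 cell gave 98.2% and 100% of their UMIs. The remaining cells had TAGLN at 176, 335 and 231 CPM and HSD17B2 at 8.86, 2.3 and 3.35.

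Telogen members were the highest in S100A2, at 10379.5 CPM against 3388 in anagen and 2836 in catagen, and the remaining cells had the same order with 4506, 2774 and 1618. The log2 ratio of S100A2 to the nearer stage in members was 1.61, but 0.93 with KRT79 at 1000 CPM and 0.98 without the 5% of cells with the most UMIs. PDLIM4, an actin-associated adaptor, was 128 CPM in telogen members against 27.8 and 26.0, and IGFBP6, a binding protein of insulin-like growth factor, 60.1 against 7.93 and 9.74, while in the remaining cells they were 77.5 against 28.7 and 27.2 CPM and 161 against 49.9 and 9.25. SPINK9, a kallikrein inhibitor, was 58.0 CPM against 5.95 and 6.5, with 47.3% of its UMIs from 1 cell, and 48.1 against 24.9 and 5.54 in the remaining cells. Over the settings tried, the log2 ratio of telogen to the nearer stage in members went down to 0.87 for IGFBP6 and 0.93 for SPINK9.

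**Figure D5:**
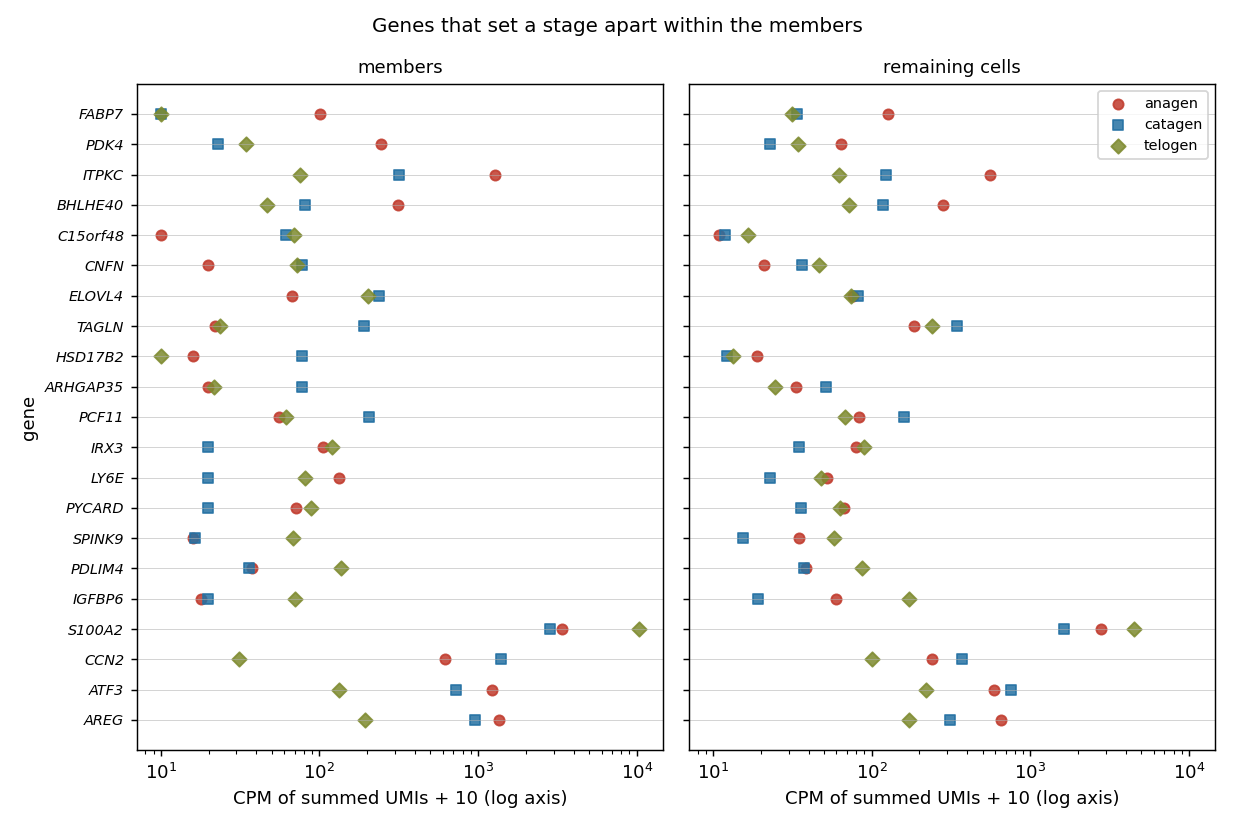
CPM plus 10 (log axis) of the 21 genes chosen by the fixed rule on stage in members and in remaining cells, 1 point per library. CCN2 members lie above the remaining cells in anagen and catagen and below them in telogen, whereas S100A2 has its highest point in telogen in both sets.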

How the data were processed

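Single-cell RNA sequencing was done on 3 libraries, 1 each for anagen, catagen and telogen. The authors deposited filtered UMI count matrices; their headers name Cell Ranger 4.0.0 (anagen), 3.1.0 (catagen) and 6.0.2 (telogen), whereas the submitters' processing notes name 2.1.1. The genome build was not given in the sources used here. Cells with at least 200 genes were kept, 13, 62 and 71 being left out. No doublet caller was run. UMIs were summed per set of cells and scaled to CPM, 10 CPM was added to both sides, and genes with 10 CPM or more over the kept cells were compared, with at least 2-fold as the call. With 1 library per stage no p-value was computed; shares have exact binomial and ratios exact conditional intervals. Cells were thinned to 1500 UMIs for shares. Members of each library were clustered alone (1500 variable genes, 15 components, 15 neighbours, Leiden resolution 0.5). Genes were named by a rule: the marker and selection genes; among genes with a symbol and 50 CPM or more in members, the 15 highest and 5 lowest by their least favourable ratio over the stages, and 4 highest and 3 lowest per stage; the extremes and most abundant gene of each list; the 3 highest and lowest against left-out KRT79 cells; and 5 leading genes per sub-cluster. Members, lists and rule were chosen with earlier results of these data known. Alternatives covered thresholds, scaling, added CPM, filters, thinning and left-out cells. Procedures were tested on simulated data. Clustering used scanpy 1.11.5 and scikit-learn 1.9.0, intervals scipy 1.17.1, and tables numpy 2.4.6 and pandas 2.3.3, run in Python 3.11.15; plots were drawn with matplotlib 3.10.9.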

Additional observations from a re-analysis of the deposited data

Results flagged for a closer look

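CCN2 stood out because its difference between members and remaining cells had opposite directions between stages. The log2 ratio of members over remaining cells was 1.36 in anagen, 1.92 in catagen and -1.70 in telogen. With 1 library per stage the difference between stages was not tested. The members held 305, 429 and 20 CCN2 UMIs. Among catagen members clustered at the finer resolution, CCN2 was among the 5 leading genes of the group of 12 cells. It was 4728 CPM there and 416 CPM in the other catagen members, so the catagen ratio rested largely on this group.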

How the results depend on the processing

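Each stage was 1 library without replicate, the members were 52 to 71 cells per library, and genes resting on a single deep cell move when that cell is left out. Over the settings tried, the log2 ratios over the remaining cells ranged from 1.76 to 2.18, 2.17 to 2.66 and 1.62 to 1.87 for KRT17 in anagen, catagen and telogen, from 2.28 to 2.60, 2.1 to 3.11 and 1.75 to 2.41 for CLDN4, from 1.53 to 2.03, 0.62 to 1.46 and 0.24 to 1.22 for GSN and from 0.36 to 1.61, 0.85 to 2.16 and 0.61 to 1.89 for ACKR4, all above 0. Of the list medians recomputed under these settings, 1303 moved by 1.5-fold or less, 112 moved further and 3 that were at least 2-fold from even reversed; where no construction explains a change below, the cause was not tested. The share of members was 0.242%, 0.315% and 0.193% with KRT79 at 1000 CPM, 0.367% and 0.315% in anagen and catagen with 5 KRT79 UMIs, 0.225%, 0.174% and 0.221% with KRT1 plus KRT10 under 0.25%, 0.565% and 0.664% in catagen and telogen among cells with at least the smallest anagen UMI total, and 0.698% in telogen among cells with 1000 genes. Genes at least 2-fold higher and lower in anagen numbered 176 and 614 with KRT79 at 1000 CPM, 144 and 675 with KRT1 plus KRT10 under 0.25%, 186 and 1110 after thinning, 119 and 178 with median-of-ratios scaling, 130 and 754 with 1 CPM added, 38 and 43 with 50 CPM added and 38 and 112 among genes with 50 CPM or more. In catagen 839 were lower with KRT79 at 1000 CPM, and the numbers were 287 and 875 with KRT1 plus KRT10 under 0.25%, 228 and 694 without the 5% of cells with the most UMIs, 369 and 1423 after thinning, 255 and 893 with 1 CPM, 68 and 54 with 50 CPM and 61 and 120 among genes with 50 CPM or more; the mean over cells gave 284 higher. In telogen 475 were lower with KRT79 at 1000 CPM, 300 without the deepest 5% and 438 with 1 CPM, and the numbers were 159 and 353 with KRT1 plus KRT10 under 0.25%, 277 and 928 after thinning, 42 and 42 with 50 CPM and 49 and 80 among genes with 50 CPM or more. At all stages 16 and 23 were found with 50 CPM, 16 and 42 among genes with 50 CPM or more, and 142 and 163 lower after thinning and with 1 CPM. Thinning leaves fewer UMIs and the 50 CPM filter fewer genes. At resolution 1 the members of anagen, catagen and telogen gave 5, 4 and 4 sub-clusters. The gland list median in catagen, 1.16, was -0.41 among genes with 1 CPM or more and -0.29 among those with 50 CPM or more, and the kallikrein and SPINK median in catagen was -1.20 with KRT1 plus KRT10 under 0.25%. Under the same limit CNFN in anagen was at 1.84 and TAGLN in catagen at -0.35 relative to the nearer stage, and HSD17B2 in catagen was at -1.42 with KRT79 at 1000 CPM and -0.80 without the deepest 5%.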
